A study of Mus musculus with 12 samples.

Results

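10 genes of the MHC class I system were followed across sorted mouse thymocytes: the classical heavy chains H2-K1 and H2-D1, 7 nonclassical heavy chains (H2-Q1, H2-Q2, H2-Q4, H2-Q6, H2-Q7, H2-T22 and H2-T23), and B2m, which encodes the light chain beta-2 microglobulin. They are 10 of the 43629 genes counted in this study, were picked by name, and were picked knowing that H2-Q1 and H2-Q2 were found mainly in DN3b cells. Sorted C57BL/6 pre-T cells gave RNA for 3 groups with 4 biological replicates each. DCKO cells were DN3-like cells of Zfp36l1fl/fl, Zfp36l2fl/fl mice carrying CD2cre, a Cre recombinase driven by CD2 regulatory elements that act in lymphoid cells; the deletion is thus not limited to the DN3 stage. DN3b and DN3a cells came from control mice with the same floxed alleles and no Cre. DN3 thymocytes lack CD4 and CD8; DN3a cells precede beta selection, the test of a newly rearranged T cell receptor beta chain, and DN3b cells have begun it.

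A class I molecule is a heavy chain held at the cell surface by beta-2 microglobulin and a bound peptide. The proteasome cuts the peptides, the TAP transporter carries them into the endoplasmic reticulum, and chaperones load them. H2-K1 and H2-D1 present peptides to CD8 T cells and are inhibitory or licensing ligands for natural killer cells, whereas the Qa and T-region molecules have narrower peptide sets, few alleles or no peptide at all. Transcription of most class I genes is driven by NLRC5 on a promoter enhanceosome of RFX, NF-Y and CREB or ATF proteins, and by interferon regulatory factors and NF-kappa B at upstream elements. Immature thymocytes are known for low class I levels at their surface.

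The 9 heavy chain genes lie on chromosome 17 in the mouse MHC (build GRCm38). H2-K1 occupies chr17:33996017-34000347 on the minus strand at the centromeric end. H2-D1 lies at chr17:35262730-35267499, H2-Q1 at chr17:35320405-35325099 and H2-Q2 at chr17:35342242-35346762, all on the plus strand. H2-Q4 (chr17:35379617-35385290), H2-Q6 (chr17:35424850-35430055) and H2-Q7 (chr17:35439155-35443773) follow on the same strand, and H2-T23 (chr17:36029773-36032855) and H2-T22 (chr17:36037128-36042747) lie further on, on the minus strand. B2m lies apart from the MHC, at chr2:122147686-122153083 on the plus strand.

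Promoters are shown because the members fell into sets by the motifs they hold, with the fewest in H2-Q2. Whether these motifs bear on the levels was not tested. RefSeq on build GRCm38.p6 gave a promoter, 250 bases before to 50 bases after the annotated start, for 9 of the 10 members (not H2-Q1). These 5 motifs were searched on both strands: the interferon-stimulated response element core (GAAA, any 2 bases, GAAA), the class I interferon consensus GAANTGAAA, the kappa B site (GGGA, any base, T, any base, CCC), the cyclic AMP response element core TGACG and the CCAAT box CCAAT. Capitals mark matches on either strand in these 4 promoters, which are H2-Q2 at chr17:35342057-35342356 (plus strand), H2-K1 at chr17:34000298-34000597 (minus strand, the first of its starts in the annotation), H2-Q7 at chr17:35438905-35439204 (plus strand) and B2m at chr2:122147437-122147736 (plus strand).
H2-Q2: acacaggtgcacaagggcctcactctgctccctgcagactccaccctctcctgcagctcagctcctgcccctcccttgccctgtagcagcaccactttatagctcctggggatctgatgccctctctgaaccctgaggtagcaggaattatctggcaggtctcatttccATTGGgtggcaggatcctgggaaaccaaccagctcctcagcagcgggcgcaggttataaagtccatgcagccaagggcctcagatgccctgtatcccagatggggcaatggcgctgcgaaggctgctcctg
H2-K1: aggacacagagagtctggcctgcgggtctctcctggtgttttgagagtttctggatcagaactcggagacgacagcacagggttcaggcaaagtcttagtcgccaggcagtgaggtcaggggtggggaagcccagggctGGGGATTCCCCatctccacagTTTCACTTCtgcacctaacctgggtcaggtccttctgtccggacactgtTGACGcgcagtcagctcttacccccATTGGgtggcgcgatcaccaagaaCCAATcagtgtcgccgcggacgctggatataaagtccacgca
H2-Q7: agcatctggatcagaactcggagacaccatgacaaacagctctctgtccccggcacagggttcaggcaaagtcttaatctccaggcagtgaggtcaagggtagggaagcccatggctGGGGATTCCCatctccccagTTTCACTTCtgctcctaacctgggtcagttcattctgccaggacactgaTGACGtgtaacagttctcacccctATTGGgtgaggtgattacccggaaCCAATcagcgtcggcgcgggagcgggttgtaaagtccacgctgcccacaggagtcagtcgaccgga
B2m: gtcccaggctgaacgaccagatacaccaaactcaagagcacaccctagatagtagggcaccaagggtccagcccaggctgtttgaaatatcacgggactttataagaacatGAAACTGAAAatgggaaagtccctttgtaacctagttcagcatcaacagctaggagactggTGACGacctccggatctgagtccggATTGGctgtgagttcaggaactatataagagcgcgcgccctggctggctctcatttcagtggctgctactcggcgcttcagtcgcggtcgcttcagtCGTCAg

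In H2-K1 and H2-Q7 the kappa B site, the class I interferon consensus, the TGACG element and a pair of CCAAT boxes stand in that order along the promoter. The second CCAAT box of H2-K1 lies 8 bases past the annotated start. The palindromic kappa B letters of H2-K1 match on both strands, 1 base apart. H2-D1, H2-Q4 and H2-Q6 also hold the kappa B site and the interferon consensus, so 5 of the 9 promoters hold each, against 1.1% and 1.83% of all 32851 mouse promoters of this length. The sequences of these 5 are much alike around both matches, so they are not 5 independent cases. The response element core was found in H2-T22, H2-T23 and B2m, 3 of 9 against 3.44% of all promoters. A TGACG element stood in 6 of 9 (20.8% of all promoters), and a CCAAT box in all 9 (37.4% of all promoters). In H2-Q2 1 CCAAT box, 81 bases before the start, was the only match. These are letter matches, not measured sites, and a missing match says only that these letters are not in this window.

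**Figure D1:**
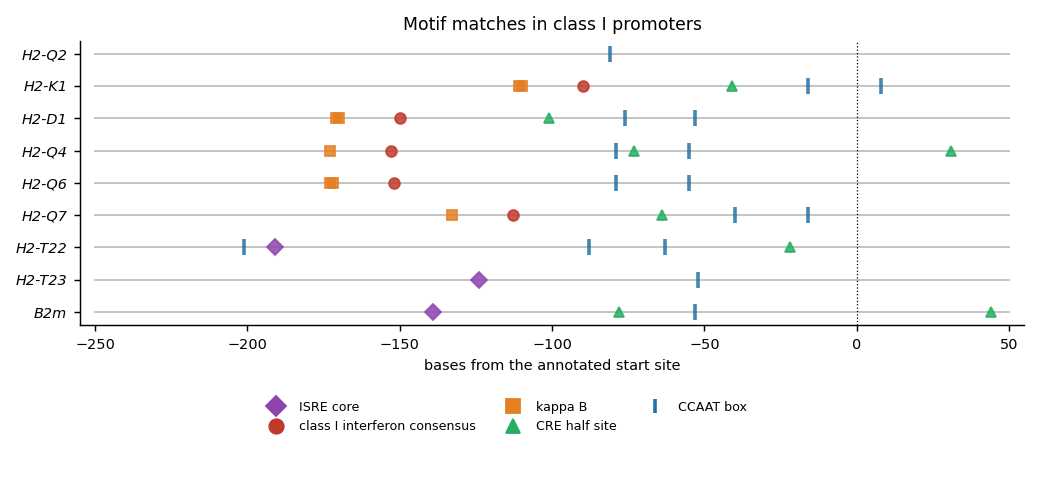
Positions of motif matches in the 9 promoters, in bases from the annotated start site (0, dotted line), on lines that run from 250 bases before to 50 bases after it. H2-K1, H2-D1, H2-Q4, H2-Q6 and H2-Q7 carry the kappa B and class I interferon matches, H2-T22, H2-T23 and B2m the response element core, and H2-Q2 a single CCAAT box.

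Libraries held 30401159 to 41258922 counts in DCKO, 32359182 to 41664096 in DN3b and 28479157 to 45975678 in DN3a, and levels are CPM, the counts scaled to a common library size after TMM scaling. The deleted genes matched the labels: Zfp36l1 was at 1.65, 1.64, 2.25 and 3.8 CPM in DCKO, against 9.63 to 23.3 CPM in DN3b and 27.1 to 43.9 CPM in DN3a, and Zfp36l2 was at 45.4 to 87.9 CPM in DCKO, against 287 to 467 CPM in DN3b and 341 to 685 CPM in DN3a. DCKO library 1 had 9.02% of its counts on 1 feature. DN3b library 1 had more of 2 of the 8 DN3 markers than the other DN3b libraries, with 129 against 37.8 to 41.5 CPM of Ptcra, the pre-T alpha chain, and 1419 against 718 to 802 CPM of Notch1. DN3a library 1 likewise had 237 against 92.6 to 122 CPM of Ptcra. Of the other DN3 markers, Il2ra, Cd3e and Rag2 were lower in every DN3b library, library 1 included, than in every DN3a library. Thy1 was higher in every one, and Rag1 and Dntt overlapped. Without overlap 23% of all genes were lower in DN3b than DN3a and 24.8% higher. These other markers are not given by library here, and whether DN3b or DN3a library 1 held cells of another stage was not tested. DN3b and DN3a libraries with the same number deviated together, with correlations of 0.35 to 0.56 between their deviations from the group means, while DCKO libraries did not pair with either. For this reason calls in DN3b against DN3a that the number as a block changes are given with it too. The count of reads cannot tell fewer expressing cells from less RNA per cell.

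Per kilobase of merged exons, B2m was the most abundant member in every group, with 1222 ± 149 CPM per kb in DCKO, 689 ± 147 in DN3b and 1201 ± 173 in DN3a (SD, n = 4 each). H2-D1 and H2-K1 came next at overlapping levels, H2-D1 with 116 ± 26.1, 72.0 ± 39.7 and 115 ± 56.7 CPM per kb and H2-K1 with 87.2 ± 25.2, 66.0 ± 37.2 and 122 ± 46.0 CPM per kb in DCKO, DN3b and DN3a. With the length of the longest transcript in place of merged exons, H2-K1 passed H2-D1 in DN3b (104 against 88.3 CPM per kb), so their order depends on the length used. H2-T23 (22.1 to 28.7 CPM per kb as group means), H2-T22 (13.2 to 16.3) and H2-Q4 (15.2 to 21.6) formed a middle tier, in which H2-T22 and H2-Q4 overlapped in every group. H2-Q7 (2.99 to 9.48) and H2-Q6 (0.989 to 2.8) were lower, and H2-Q1 was last in every group, at 0.604 ± 0.388 CPM per kb even in DN3b.

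H2-Q2 was the member whose rank moved. It was the second lowest in DCKO (0.0402 ± 0.0293 CPM per kb) and DN3a (0.363 ± 0.315), and the 4th highest in DN3b (24 ± 16.1), next to H2-T23 (22.1 ± 8.34) and within its spread. It made up 0 to 0.0296% of the summed heavy chain level per kb in DCKO libraries, 2.36% to 26.2% in DN3b and 0.0222% to 0.377% in DN3a. H2-K1 and H2-D1 together made up 72.7% to 77.7% of that sum in DCKO, 50% to 74.5% in DN3b and 72.5% to 79.5% in DN3a. The 50% was DN3b library 4, the library with the most H2-Q2.

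**Figure D2:**
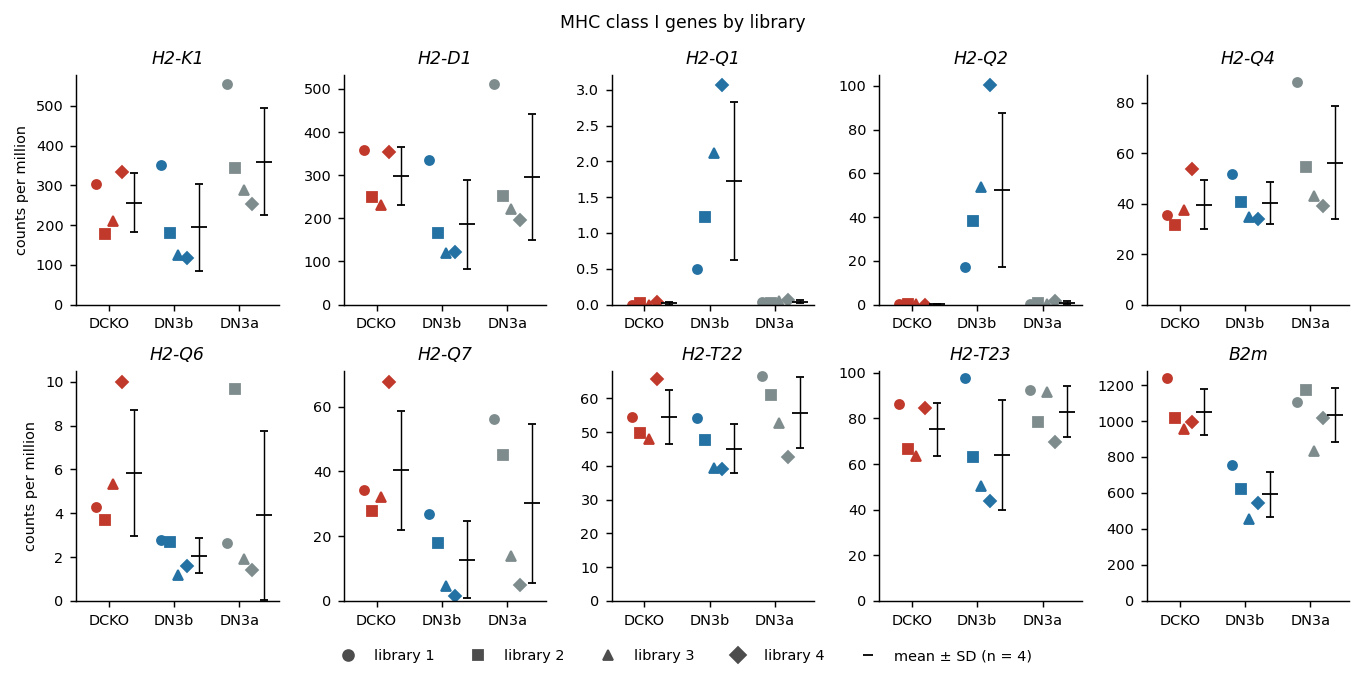
Levels of the 10 members in CPM (linear axes from 0) for each library of DCKO, DN3b and DN3a, with the mean and SD of 4 libraries in black. H2-Q1 and H2-Q2 stand up in DN3b only, B2m is lowest in DN3b, and H2-K1, H2-D1 and H2-Q7 overlap between DN3b and DN3a.

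H2-Q2 and H2-Q1 were read in DN3b and were close to absent elsewhere, which is the pattern they were picked for, so their values are a description without a test. H2-Q2, a Qa-region heavy chain of little known function, had 2, 5, 5 and 0 counts in DCKO libraries 1 to 4, 725, 1566, 2021 and 3080 counts in DN3b, and 8, 36, 20 and 55 counts in DN3a. In CPM these were 0.0806, 0.139, 0.131 and 0 in DCKO, 17.3, 38.4, 53.6 and 100.2 in DN3b, and 0.236, 0.672, 0.474 and 1.79 in DN3a. None of the 3 groups overlapped: every DN3b library was above every DN3a library, and every DN3a library was above every DCKO library. Of all 13944 genes tested, 9.87% were lower in DCKO than DN3b without overlap, 27.1% were lower in DCKO than DN3a, and 24.8% were higher in DN3b than DN3a.

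Summed over libraries, the H2-Q2 level in DCKO was 0.00188 times that in DN3b, a 531-fold difference (95% counting interval 304 to 1028). Against DN3a it was 0.124 times (0.0624 to 0.225, from 12 against 119 counts). DN3b exceeded DN3a 66.0-fold (55 to 79.7). These intervals cover counting error only and test nothing, because the gene was picked for this pattern. They leave out the spread between replicates, which within DN3b reached from 17.3 to 100.2 CPM. Within each replicate number DN3b stood above DN3a by 5.9, 5.73, 6.67 and 5.77 on the log2 scale, a mean of 6.02 ± 0.44 (SD, n = 4), a narrower spread than that of the levels.

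H2-Q1, its neighbour and another Qa-region gene of little known function, followed at a far lower level. It had 0, 1, 0 and 1 counts in DCKO, 21, 50, 80 and 94 counts in DN3b, and 1, 1, 2 and 2 counts in DN3a, or 0.5 to 3.06 CPM in DN3b. DN3b exceeded DN3a 43.4-fold (19.6 to 119) and DCKO 106-fold (28.9 to 877), with intervals that again cover counting error only. DCKO and DN3a were both at 0 to 2 counts a library, too few to compare (ratio 0.41, 0.0405 to 2.3). In DN3b the counts of H2-Q1 were 2.9%, 3.19%, 3.96% and 3.05% of those of H2-Q2, a nearly constant share. Of all 50-base windows in H2-Q2 transcripts, 12.9% also occur in H2-Q1, and 9.05% of those of H2-Q1 occur in H2-Q2, so some reads cannot be placed in either. How far H2-Q1 counts came from such reads was not tested.

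The order of the DN3b libraries in H2-Q2 was the reverse of that in H2-K1 and H2-Q7. Library 1 was the lowest in H2-Q1 and H2-Q2 and the highest in H2-K1, H2-D1, H2-Q4, H2-Q6, H2-Q7, H2-T22, H2-T23 and B2m. Library 4 was the highest in H2-Q1 and H2-Q2 and the lowest in H2-K1 and H2-Q7. Over the 12 libraries the log2 CPM of H2-Q1 and H2-Q2 correlated at r = 0.95, and H2-Q2 with H2-K1 at -0.59 and with B2m at -0.87. These are descriptions across libraries that share 3 groups, and carry no p. H2-Q1 and H2-Q2 were both picked for high levels in DN3b, so a high r between them follows from the choice. B2m was lowest in DN3b, so its negative r with H2-Q2 largely restates that group difference.

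Genes beside H2-Q1 and H2-Q2 did not share the pattern. Within 100 kb of their starts 20 genes are annotated, of which 11 others passed the low-count filter. In DN3b against DN3a the only one that rose was Ddx39b, an RNA helicase gene (log2 fold change 0.66, edgeR adjusted p = 0.000819), and the only one that fell was Gm11131, annotated antisense to H2-Q4 (-0.80, adjusted p = 0.00145). Of all genes 27.4% rose and 25.2% fell there. In DCKO against DN3b none rose and 1 fell, again Gm11131 (-0.82, adjusted p = 0.00484), the direction of H2-Q2, where 10.3% of all genes rose and 8.58% fell. In DCKO against DN3a 1 rose and 3 fell, where 30.7% of all genes rose and 29.5% fell. The pseudogene H2-Q3, between H2-Q2 and H2-Q4, had 1 count in all 12 libraries. H2-Q5, a polymorphic pseudogene, averaged 1.0 CPM in DCKO, 0.967 in DN3b and 1.44 in DN3a. Elsewhere in the class I family, traces of H2-T3, which encodes the TL antigen of thymus and gut, stood at 3, 1, 0 and 0 counts in DCKO, 2 to 10 counts in DN3b, and 0 or 1 count in DN3a, below the filter. Gm8909, a predicted class I gene, had 0 counts in all DCKO libraries, 3 to 13 in DN3b and 0 or 1 in DN3a.

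Among the 5 genes most like H2-Q2 over the 12 libraries, of genes whose log2 CPM averaged 2 or more, were Trbv15 (r = 0.959), Adcy3 (0.952), Galnt12 (0.951) and Zap70 (0.951). Among the 5 most like H2-Q1 were Plxna3 (0.973), Zap70 (0.973), B4gat1 (0.968) and Adcy3 (0.963). Zap70, the kinase bound to the signalling T cell receptor, averaged 16.5 ± 1.47 CPM in DCKO, 67.3 ± 13 CPM in DN3b and 19.2 ± 4.33 CPM in DN3a (SD, n = 4 each). Adcy3, an adenylyl cyclase gene, averaged 8.71 CPM in DCKO, 25 CPM in DN3b and 11.9 CPM in DN3a. The rule of likeness selects genes that are high in DN3b, and neither had a ratio near that of H2-Q2.

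Markers of the later CD4 and CD8 positive stage were higher in DN3b than DN3a, as H2-Q2 was, but not they alone. The 5 markers summed to 9.2 to 36.7 CPM in DCKO, 25.0 to 63.4 CPM in DN3b and 4.16 to 4.87 CPM in DN3a. Of the 5, 4 rose in DN3b against DN3a, where 27.4% of all genes rose. In DCKO against DN3b 2 of the 5 fell, where 8.58% of all genes fell, and none of the 5 was at 0 throughout. Among 5 markers of natural killer and innate lymphoid cells, the 2 tested also rose in DN3b against DN3a, but the list was mixed. Gzma and Tbx21 were higher there without overlap, Klrb1c was lower without overlap, and Ncr1 and Eomes overlapped. Without overlap 24.8% of all genes were higher and 23% lower. In DN3b 2 of the 5 were at 0 in every library. The 5 markers summed to 377 to 571 CPM in DN3b and 97.9 to 214 CPM in DN3a. Cd4 itself was between 0.159 and 2.34 CPM in every library.

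DN3b and DCKO cells differed in B2m. B2m was at 1239, 1016, 953 and 995 CPM in DCKO, 753, 621, 454 and 542 CPM in DN3b, and 1108, 1175, 833 and 1015 CPM in DN3a. DN3b was the low group: no library of it reached those of DCKO or DN3a, while DCKO and DN3a overlapped. Of all genes, 11% were higher in DCKO than DN3b without overlap, and 23% lower in DN3b than DN3a. Against DN3b, B2m rose in DCKO by a log2 fold change of 0.83 ± 0.16 (SE, 1.77-fold, edgeR adjusted p = 0.00361), and it was the only member called of the 8 that could be tested, where 18.9% of all genes were called (10.3% higher and 8.58% lower). Against DN3a the DCKO difference was 0.03 ± 0.16 (adjusted p = 0.901). Without DCKO libraries 1 and 2 together the rise over DN3b was 0.72 with an adjusted p of 0.0511.

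In DCKO against DN3b the fold changes of the other members were mostly positive and did not pass. The median over all 8 was 0.54 on the log2 scale, beside -0.02 over all genes. H2-Q7, which encodes Qa-2, a lipid-anchored molecule of mouse T cells, was at 34.2, 27.8, 32.0 and 67.7 CPM in DCKO, 26.9, 18.0, 4.51 and 1.53 CPM in DN3b, and 56.2, 45.2, 14.0 and 5.04 CPM in DN3a. All DCKO libraries were above all DN3b libraries, and the difference of 1.66 ± 0.79 had an adjusted p of 0.159, with DN3b libraries spread from 1.53 to 26.9 CPM. Without DN3b library 1 the H2-Q7 difference was 2.32 (adjusted p = 0.0788), and over all single libraries left out it ranged from 1.28 to 2.32. H2-Q6, its close relative in the Qa-2 locus, was at 4.27, 3.7, 5.36 and 10 CPM in DCKO, 2.79, 2.68, 1.19 and 1.59 CPM in DN3b, and 2.66, 9.66, 1.92 and 1.4 CPM in DN3a. It too did not overlap between DCKO and DN3b, with a difference of 1.5 ± 0.56 and an adjusted p of 0.0799. With DESeq2 H2-Q6 was called (adjusted p = 0.0215), as it was without DN3a library 2 (0.0177).

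Among the classical genes, H2-K1 was at 304, 177, 211 and 333 CPM in DCKO, 352, 181, 125 and 118 CPM in DN3b, and 555, 343, 287 and 254 CPM in DN3a. H2-D1 was at 358, 249.7, 231 and 354 CPM in DCKO, 336, 165, 119 and 123 CPM in DN3b, and 512, 252, 221 and 197 CPM in DN3a. All 3 groups overlapped in both genes, and library 1 was the highest in both control groups. In DCKO against DN3b, H2-K1 differed by 0.40 ± 0.35 (adjusted p = 0.45) and H2-D1 by 0.69 ± 0.36 (adjusted p = 0.198). The nonclassical H2-T22 differed by 0.27 (0.24), H2-T23 by 0.24 (0.469) and H2-Q4 by -0.03 (0.951). Without DN3b library 1 the H2-D1 difference was 1.14 (adjusted p = 0.0227) and that of H2-T23 was 0.52 (adjusted p = 0.0413). Without both control libraries numbered 1, a setting chosen after the data were seen, 4 of the 8 members were called higher in DCKO than DN3b: B2m, H2-K1 (0.85, adjusted p = 0.0209), H2-D1 (1.13, 0.00148) and H2-T23 (0.51, 0.0374). Of all genes 2823 were then called, 1617 of them higher.

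The ratio between the classical genes was described without a test. H2-K1 per kb was 0.622 to 0.825 of H2-D1 per kb in DCKO libraries, 0.84 to 0.966 in DN3b, and 0.951 to 1.19 in DN3a. DCKO did not overlap either control group, and the ranges of DN3b and DN3a overlapped. The ratio of B2m to the summed heavy chains per kb was 3.4 to 5.49 in DCKO, 2.61 to 3.59 in DN3b and 2.64 to 5.43 in DN3a, and overlapped between all groups.

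Between DCKO and DN3a, none of the 8 tested members was called by edgeR, where 60.2% of all genes were (30.7% higher and 29.5% lower); none had an unadjusted p under 0.05, and DESeq2 called none. The median of the 8 was -0.01, beside -0.04 over all genes. H2-D1 differed by 0.01 ± 0.36 (adjusted p = 0.976), H2-T22 by -0.03 (0.863), H2-K1 by -0.49 ± 0.35 (0.239), H2-Q7 by 0.42 (0.651), H2-T23 by -0.14 (0.585), H2-Q4 by -0.51 (0.0911) and H2-Q6 by 0.57 (0.384). For H2-K1 and H2-Q7 such standard errors leave room for sizeable differences. Single libraries moved 2 of these: H2-Q6 was called higher without DN3a library 2 (1.55, adjusted p = 0.00772), and H2-Q4 was called lower without DCKO library 4 (0.0344) or DN3a library 4 (0.041).

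**Figure D3:**
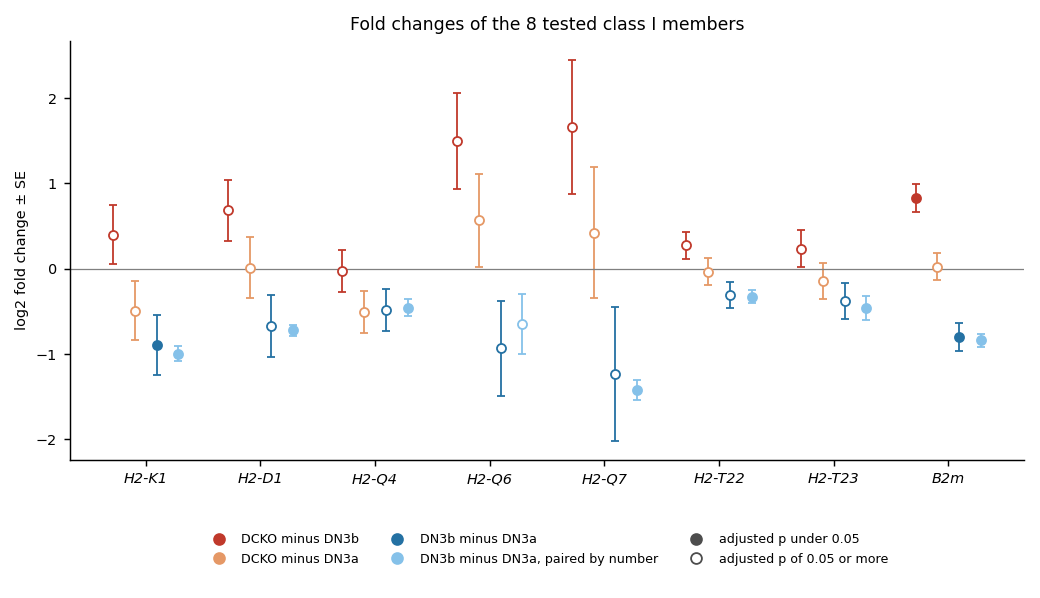
Log2 fold changes (± SE) of the 8 tested members in the 3 comparisons and in DN3b against DN3a with the replicate number as a block; filled points have an adjusted p under 0.05. B2m is filled in both comparisons that involve DN3b, H2-K1 in DN3b against DN3a, and 7 of the 8 members are filled and below 0 once the libraries are paired.

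DN3b and DN3a differed in B2m and H2-K1, and in more members once paired. Without pairing, B2m (log2 fold change -0.80 ± 0.16, edgeR adjusted p = 0.00118) and H2-K1 (-0.89 ± 0.35, adjusted p = 0.0473) were called lower, 2 of 8 members, where 52.6% of all genes were called, 25.2% lower and 27.4% higher. The median of the 8 was -0.74, beside -0.02 over all genes. With the replicate number as a block, 7 of 8 were called lower, where 67.3% of all genes were called and 34.3% called lower. H2-K1 was then at -0.996 ± 0.089 (SE, edgeR adjusted p = 5.81e-05), H2-D1 at -0.72 ± 0.07 (6.88e-05), H2-Q7 at -1.42 ± 0.12 (3.76e-05) and B2m at -0.84 ± 0.08 (6.27e-05). H2-Q4 was at -0.46 ± 0.10 (0.00534), H2-T22 at -0.33 ± 0.07 (0.00525) and H2-T23 at -0.46 ± 0.14 (0.0183), and H2-Q6 was at -0.64 ± 0.35 (0.141). Unpaired, the H2-K1 call was lost on leaving out any of 9 single libraries, with an adjusted p of up to 0.149 without DN3a library 1. Without DN3b library 1, 5 of 8 members were called lower unpaired, with H2-D1 (-1.12, adjusted p = 0.00768), H2-T22 (-0.40, 0.0482) and H2-T23 (-0.66, 0.00392) beside B2m and H2-K1, and 7790 of all genes were then called, 3822 of them lower.

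H2-K1 was lower in DN3b in all 4 pairs, by log2 differences of -0.66, -0.92, -1.2 and -1.11, and H2-D1 by -0.61, -0.61, -0.9 and -0.68. H2-Q7 differed by -1.06, -1.32, -1.62 and -1.68, although its level ranged from 1.53 to 26.9 CPM in DN3b and from 5.04 to 56.2 CPM in DN3a. B2m differed by -0.56, -0.92, -0.87 and -0.91. H2-Q6 differed by 0.07, -1.83, -0.66 and 0.18, lower in DN3b in 2 of 4 pairs. H2-Q4, a Qa-region heavy chain, was at 35.4, 31.7, 37.3 and 53.6 CPM in DCKO, 51.7, 40.8, 34.6 and 33.9 CPM in DN3b, and 88.2, 54.3, 43.0 and 39.2 CPM in DN3a, and was lower in DN3b in all 4 pairs.

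H2-T22, a peptide-free ligand of some gamma-delta T cells, was at 54.6, 49.7, 47.9 and 65.9 CPM in DCKO, 54.1, 47.8, 39.3 and 39.0 CPM in DN3b, and 66.7, 61.0, 52.8 and 42.7 CPM in DN3a. H2-T23, which encodes Qa-1, the ligand of the CD94 and NKG2 receptors of natural killer cells, was at 86.1, 66.8, 63.6 and 84.4 CPM in DCKO, 97.9, 63.1, 50.5 and 43.8 CPM in DN3b, and 92.6, 78.3, 91.4 and 69.5 CPM in DN3a. The groups overlapped in both genes. H2-T22 was lower in DN3b in 4 of 4 pairs and H2-T23 in 3 of 4. Of the windows in H2-T22 transcripts, 31.2% also occur in H2-T10, so the values of H2-T22 are uncertain, as are those of H2-Q6 (32.0% shared with other genes) and H2-Q7 (26.4%), while B2m shares none. H2-Q4, H2-T22, H2-T23 and B2m overlap another annotated gene, and the strand setting of the counting is not given in the sources used here.

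**Figure D4:**
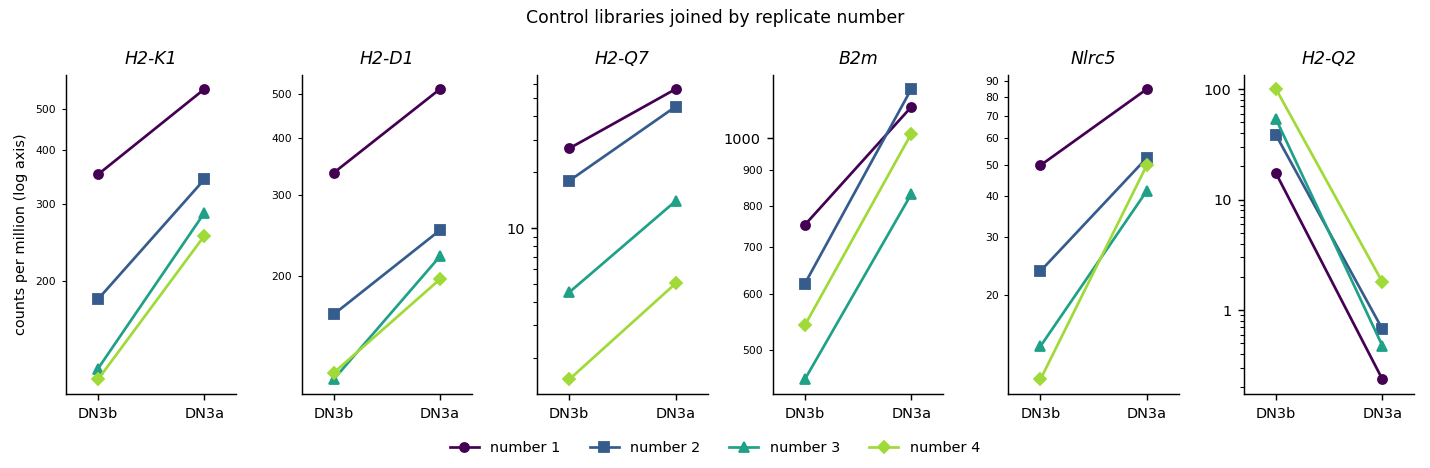
Levels in CPM (log axes) of 6 genes in control libraries, each line joining the DN3b and DN3a libraries of 1 replicate number. H2-K1, H2-D1, H2-Q7, B2m and Nlrc5 are lower in DN3b in all 4 numbers, and H2-Q2 is higher in all 4, with nearly parallel lines in H2-Q7 over a wide range of levels.

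Nlrc5, which encodes the class I transactivator and was named after its values were seen, was lower in DN3b than in both other groups. It was at 67.5, 51.4, 47.9 and 61.6 CPM in DCKO, 49.7, 23.7, 14.0 and 11.1 CPM in DN3b, and 84.8, 52.4, 41.6 and 49.8 CPM in DN3a. DN3b library 1 overlapped the other groups and the remaining 3 DN3b libraries were below them all. It was higher in DCKO than DN3b (1.21 ± 0.39, edgeR adjusted p = 0.0438), differed by -0.001 ± 0.38 between DCKO and DN3a (0.998), and was lower in DN3b than DN3a (-1.21 ± 0.39, 0.0181), in 4 of 4 pairs. The call against DN3b was lost without any single DCKO library (adjusted p 0.0656 to 0.113), without DN3b library 2 (0.101), 3 (0.122) or 4 (0.08), and without DN3a library 2 (0.0558), 3 (0.0538) or 4 (0.0531), as well as with upper quartile scaling (0.0542) and with the 8 libraries alone (0.0628). Without DN3b library 1 the difference of DCKO from DN3b was 1.81 (0.00121) and that of DN3b from DN3a was -1.80 (0.000223). The call against DN3a was lost without DN3b library 3 (0.0514) or DN3a library 1 (0.0523).

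The whole enhanceosome list, 9 genes with Nlrc5 counted among them, was mixed: 3 rose and 1 fell in DCKO against DN3b, 3 rose and 2 fell in DCKO against DN3a, and 3 rose and 3 fell in DN3b against DN3a (3 and 4 with the replicate block). The 5 called in DCKO against DN3a are close to the share of all genes called there, 60.2%, and 18.9% and 52.6% were called in the other comparisons. With the replicate block 67.3% of all genes were called in DN3b against DN3a. Rfx5, a DNA-binding RFX subunit, was at 25.2 to 27.1 CPM in DCKO, 30.1 to 51.2 CPM in DN3b and 54.8 to 80.0 CPM in DN3a, without overlap between any groups. It fell in DCKO against DN3b (-0.58 ± 0.16, adjusted p = 0.0207) and against DN3a (-1.35 ± 0.16, 1.79e-05), and in DN3b against DN3a (-0.77 ± 0.16, 0.00123). Nfyc, an NF-Y subunit, went the other way, at 87.6 to 97.6 CPM in DCKO, 71.5 to 81.0 CPM in DN3b and 49.9 to 57.7 CPM in DN3a. It rose in DCKO against DN3a (0.79 ± 0.08, 1.04e-05) and in DN3b against DN3a (0.50 ± 0.08, 0.000389); its rise in DCKO against DN3b (0.29 ± 0.08, 0.0279) was lost with upper quartile scaling (0.0717) and without DCKO library 1 (0.0908) or 2 (0.0895) or DN3b library 1 (0.0571), 2 (0.113) or 3 (0.08).

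Genes of interferon and NF-kappa B signalling were mostly lower in DCKO and in DN3b than in DN3a. Of 21, 2 rose and 2 fell in DCKO against DN3b, 2 rose and 13 fell in DCKO against DN3a, and 1 rose and 11 fell in DN3b against DN3a (2 and 14 with the replicate block). Of all genes 8.58%, 29.5% and 25.2% fell (34.3% in DN3b against DN3a with the replicate block). With upper quartile scaling none rose and 18 fell in DCKO against DN3a. That scaling also raised the fallers among all genes there, from 4116 to 5528. Jak2, a kinase of the interferon gamma receptor, fell in DCKO (-0.95 ± 0.11, edgeR adjusted p = 1.52e-05) and in DN3b (-0.81 ± 0.11, 8.78e-05) against DN3a, as did Stat2 (-0.68 ± 0.12, 0.000412, and -0.93 ± 0.12, 9.26e-05). Nfkb2, the p100 precursor of NF-kappa B, rose in DCKO against DN3b (1.3 ± 0.32, 0.0146), a call lost without DN3b library 2 (0.0504) or 3 (0.0537).

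Of 12 genes of peptide transport and loading, 1 rose and none fell in DCKO against DN3b, 7 rose and 2 fell in DCKO against DN3a, and 5 rose and 2 fell in DN3b against DN3a (6 and 4 with the replicate block). Of all genes 10.3%, 30.7% and 27.4% rose in these comparisons. With the replicate block 4529 of all genes rose and 4704 fell in DN3b against DN3a. With upper quartile scaling 3 loading genes rose and 2 fell in DCKO against DN3a, where 3119 of all genes rose and 5528 fell. Calr, the chaperone calreticulin, was at 784, 707, 717 and 666 CPM in DCKO, 485, 578, 563 and 698 CPM in DN3b, and 315 to 438 CPM in DN3a. It rose against DN3a in DCKO (0.99 ± 0.13, adjusted p = 4.51e-05) and in DN3b (0.69 ± 0.13, 0.000895). Canx, calnexin, rose likewise, by 1.01 ± 0.18 (0.000348) in DCKO and 0.68 ± 0.18 (0.00602) in DN3b.

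Tapbp, Tap1 and Tap2 were named after their values were seen. Tapbp, tapasin, which bridges heavy chains to the transporter, was at 59.3, 50.6, 66.4 and 82.4 CPM in DCKO, 115, 63.0, 60.8 and 48.9 CPM in DN3b, and 157, 107, 124 and 115 CPM in DN3a. It fell against DN3a in DCKO (-0.96 ± 0.24, adjusted p = 0.00378) and in DN3b (-0.80 ± 0.24, 0.0125). Tap1, a transporter subunit, was at 137, 102, 113 and 175 CPM in DCKO, 156, 96.4, 89.6 and 69.9 CPM in DN3b, and 209, 124, 132 and 108 CPM in DN3a. It did not pass in the unpaired comparisons of all libraries; it passed in DN3b against DN3a without DN3b library 1 (-0.74, 0.0171), and with the replicate block it fell in DN3b against DN3a (-0.52, adjusted p = 0.000187), as did Tap2, the other subunit (-0.48, 0.012).

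Among proteasome genes the constitutive core rose against DN3a. All 14 core subunits rose in DCKO against DN3a and in DN3b against DN3a, with medians of 1.18 and 0.84 on the log2 scale, and 5 rose in DCKO against DN3b, where 30.7%, 27.4% and 10.3% of all genes rose. With upper quartile scaling 1 core subunit rose in DCKO against DN3b and 1 fell, Psma7 (-0.34, adjusted p = 0.0431), which was not among the 5 and was named after its values were seen. Under that scaling 1051 of all genes rose there and 1644 fell. Psmb5, the constitutive subunit that the immunoproteasome replaces with Psmb8, was at 81.1, 79.6, 69.7 and 96.9 CPM in DCKO, 66.9 to 86.3 CPM in DN3b, and 22.5 to 34.0 CPM in DN3a. It rose against DN3a in DCKO (1.43 ± 0.15, adjusted p = 8.03e-06) and in DN3b (1.37 ± 0.15, 3.45e-05). Of 6 immunoproteasome and PA28 genes, 1 rose in DCKO against DN3b, 4 rose in DCKO against DN3a and 1 rose in DN3b against DN3a (3 with the replicate block), and none fell; with upper quartile scaling 2 rose and 1 fell in DCKO against DN3a. Psmb9, an immunoproteasome subunit encoded beside Tap1, was at 113, 96.8, 93.2 and 145 CPM in DCKO, 69.5 to 89.4 CPM in DN3b and 64.3 to 91.9 CPM in DN3a. It rose in DCKO against DN3b (0.57 ± 0.16, 0.0238; not called without DCKO library 1 or DN3b library 2, 3 or 4, up to 0.0856) and against DN3a (0.62 ± 0.16, 0.0041), while DN3b and DN3a differed by 0.05.

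**Figure D5:**
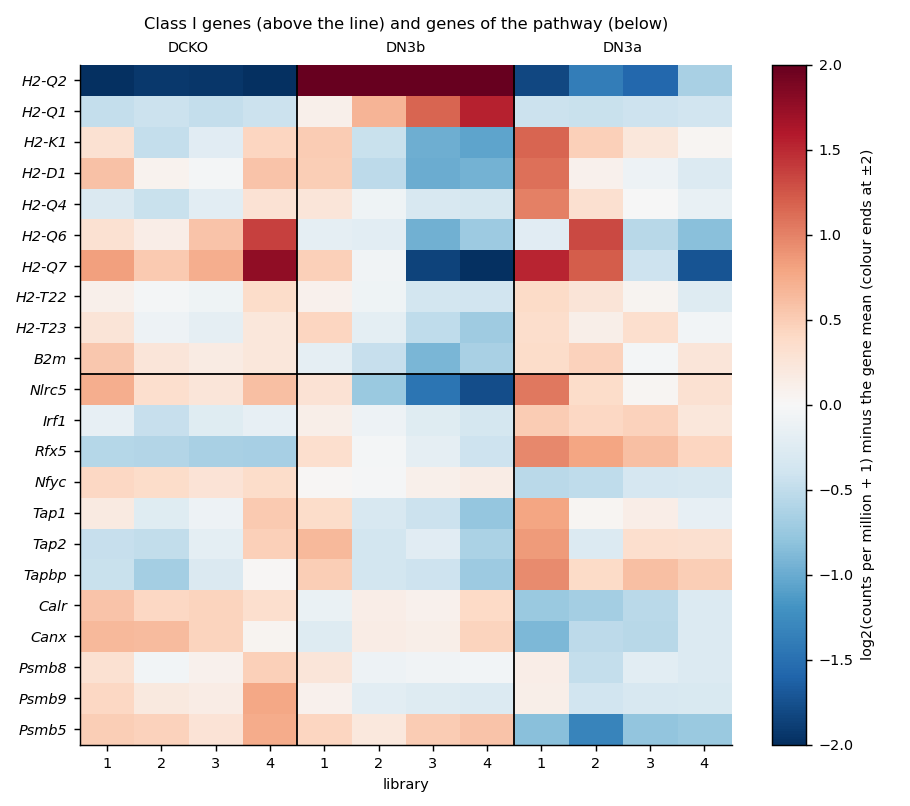
Log2(CPM + 1) of the 10 members (above the line) and 12 pathway genes (below it) in each library, as the difference from the gene's mean over 12 libraries, red higher and blue lower, with colours ending at ±2. DN3b libraries 3 and 4 are lowest in H2-K1, H2-Q7, B2m and Nlrc5, where H2-Q1 and H2-Q2 are high, and Psmb5, Calr and Canx are low in DN3a.

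Class I relatives outside the 10 members were called lower more often than higher against DN3a. Of 19 listed, 11 passed the filter. Among these, 1 rose and 2 fell in DCKO against DN3b, 1 rose and 6 fell in DCKO against DN3a, and 6 fell in DN3b against DN3a (7 with the replicate block). In these comparisons 8.58%, 29.5% and 25.2% of all genes fell (34.3% with the block). Mr1, which presents vitamin B metabolites to MAIT cells, was at 6.25, 7.63, 5.99 and 5.23 CPM in DCKO, 14.4, 16.0, 11.9 and 14.9 CPM in DN3b, and 21, 25.6, 21.8 and 20.1 CPM in DN3a, with no overlap between groups. It fell in DCKO against DN3b (-1.19 ± 0.15, adjusted p = 0.000217) and against DN3a (-1.82 ± 0.15, 3.12e-06), and in DN3b against DN3a (-0.63 ± 0.15, 0.00289). Cd1d1, which presents lipids to NKT cells, fell against DN3a in DCKO (-1.41 ± 0.18, 3.95e-05) and in DN3b (-1.06 ± 0.18, 0.000433). H2-T24, a T-region heavy chain, was at 2.92 to 3.92 CPM in DCKO, 0.846 to 4.88 CPM in DN3b and 7.7 to 9.57 CPM in DN3a, and fell in DN3b against DN3a (-1.73 ± 0.38, 0.0022) and in DCKO against DN3a (-1.38, 0.00632). Hfe, the class I-like regulator of iron uptake, was at 4.15, 4.2, 3.27 and 2.58 CPM in DCKO, 0.952, 1.35, 1.22 and 0.586 CPM in DN3b, and 2.66, 1.49, 1.45 and 2.34 CPM in DN3a. As in B2m, DN3b was below both other groups without overlap: Hfe rose in DCKO against DN3b (1.78 ± 0.30, 0.00172) and fell in DN3b against DN3a (-0.93 ± 0.30, 0.02, lost without DN3a library 1, 0.0557, or 4, 0.0506). Its rise in DCKO against DN3a (0.85 ± 0.29, 0.0238) was lost with upper quartile scaling (0.0779) and without DCKO library 1 (0.0691) or 2 (0.0721) or DN3a library 2 (0.0706) or 3 (0.0731).

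Class II genes, a sign of antigen-presenting cells, were few and low. Of 9, 1 fell in DCKO against DN3b, 2 rose and 3 fell in DCKO against DN3a, and 1 rose and 1 fell in DN3b against DN3a (1 and 3 with the replicate block). In these comparisons 18.9%, 60.2% and 52.6% of all genes were called (67.3% with the block). Markers of dendritic cells and class II summed to 5.62 to 14.0 CPM in DCKO, 7.59 to 12.6 CPM in DN3b and 4.98 to 8.41 CPM in DN3a. Myeloid markers, 5 genes, summed to 8.04 to 18.7 CPM in DCKO, 1.43 to 9.74 CPM in DN3b and 19.2 to 31.1 CPM in DN3a, mostly Lyz2. DN3b reached lowest but overlapped DCKO, and DN3a was above both. In B2m, by contrast, DCKO and DN3a overlapped and both were above DN3b. Csf1r and Cd14 stayed at or below 0.638 CPM in every library. B cell and thymic epithelial marker sums were highest in DN3a (42.5 to 58.3 and 75 to 129.7 CPM), with the epithelial genes Foxn1 and Krt5 at or below 0.0651 CPM in every library. The markers behind these sums were mixed. Without overlap Cd79b and Epcam were lower in DN3b than DN3a, Cd79a was higher, and the others overlapped. Without overlap 23% of all genes were lower there and 24.8% higher. Larger sums, given for DCKO, DN3b and DN3a in turn, came from other lists. Natural killer and innate lymphoid markers were at 264 to 464, 377 to 571 and 97.9 to 214 CPM. Gamma-delta T markers were at 138 to 306, 157 to 311 and 482 to 595 CPM, and mature T markers at 338 to 724, 322 to 526 and 533 to 1029.9 CPM. The 8 DN3 markers, summed, were at 7478 to 11647 CPM in DCKO, 4105 to 6751 CPM in DN3b and 6775 to 8996 CPM in DN3a. The part of such cells in the class I values was not tested.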

How the data were processed

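Raw counts, whole numbers per Ensembl gene and library as the authors deposited them, were the only measurement used. Per the submitters' processing notes, the tools were HTSeq, Trim Galore, TopHat2 2.0.12 and, in version 1.6.3, DESeq2, on build GRCm38. The sources used here give no annotation release and no strand setting. Per the labels, 20 to 200 ng of RNA went into stranded, rRNA-depleted libraries. Of 43629 genes, 42548 had a symbol in GENCODE M21.

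R 4.3.3 and edgeR 4.0.16 fitted all 12 libraries in 1 quasi-likelihood model (group as the only term, TMM, filterByExpr with a count minimum of 10; 13944 genes, 9 residual degrees of freedom). Contrasts were two-sided with Benjamini-Hochberg adjustment over all genes, threshold 0.05. The p-values measure the spread between these biological replicates. The script was tested on simulated counts. All 10 members passed the filter, H2-Q1 and H2-Q2 only through DN3b, for which no test is given.

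Alternatives were RLE and upper quartile scaling, other count minimums, DESeq2 1.42.0, the 8 libraries of a comparison alone, the replicate block and leaving libraries out. Control numbers pair (correlations 0.44, 0.56, 0.35 and 0.52; the pairing comes from these, not the labels); DCKO numbers do not. Counting intervals are exact at 95% and cover counting error only; PCR copies are not separated. Likeness is Pearson's r of log2 CPM (prior count 2) over 12 libraries. Named genes are the members, Zfp36l1 and Zfp36l2, up to 3 per list and comparison with the smallest adjusted p, and the 5 genes most like H2-Q1, H2-Q2 and H2-K1; others are marked as named after their values were seen, or serve as markers, neighbours or sequence partners. Members and lists were chosen with earlier results of these data known. Some results are not reported here.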

Additional observations from a re-analysis of the deposited data

Results flagged for a closer look

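H2-Q6 stood at 9.66 CPM in DN3a library 2, where the other DN3a libraries had 2.66, 1.92 and 1.4 CPM; the gap to the next library was 0.848 of the group's range. H2-Q7 stood at 67.7 CPM in DCKO library 4, where the other DCKO libraries had 34.2, 27.8 and 32.0 CPM, a gap of 0.838 of the range. Both gaps exceed Dixon's 95% critical value for 4 samples. They were the only flags among 30 groups of member levels and 27 groups of ratios, and chance flags about 1 in 20 groups.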

How the results depend on the processing

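Over 528 alternative values of the 8 tested members in the 3 comparisons, 488 kept their side of the threshold, 27 became called, 13 lost their call and none of the called values changed sign. The 13 were H2-K1 in DN3b against DN3a (12 settings, among them the 8 libraries alone, adjusted p = 0.0632) and B2m in DCKO against DN3b without DCKO libraries 1 and 2. The count of called genes in DCKO against DN3b was 2635, and 950 without DCKO libraries 1 and 2, 1588 without both control libraries numbered 2 (both chosen after seeing the data) and 1062 with the replicate block, although DCKO numbers share only a number with the controls (correlations -0.26 to 0.12). In DN3b against DN3a the block gave 9233 against 7334 called genes. It changed the calls of 5 members, given beside them, and no call of the other 3. Leaving out 1 library gave 1601 to 3249 called genes in DCKO against DN3b, 7622 to 8699 in DCKO against DN3a and 6253 to 7790 in DN3b against DN3a. Upper quartile scaling shifted the median of all genes to -0.10, -0.26 and -0.17 in these comparisons and the split of higher and lower calls to 1051 and 1644 (from 1438 and 1197), 3119 and 5528 (from 4275 and 4116), and 3021 and 4536 (from 3815 and 3519). Under it H2-Q4 was lower in DCKO (-0.73, adjusted p = 0.0218) and, with H2-T22, in DN3b (0.0484 and 0.0313) against DN3a. The cause of these changes was not tested. Depth limits H2-Q1 in DCKO and DN3a, at 0 to 2 counts a library.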

Other observations

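The 5 genes most like H2-K1 over the 12 libraries were Plin3 (r = 0.97), Trim11 (0.968), Prss57 (0.963), Cdc42se1 (0.948) and Sash3 (0.943), each with 12 libraries that share groups and depth. Trim11, a ubiquitin ligase gene, averaged 92.6 ± 10.4 CPM in DCKO, 77.3 ± 29.2 CPM in DN3b and 125 ± 30.8 CPM in DN3a (SD, n = 4 each). Among members, H2-K1 correlated with H2-T23 at 0.92, H2-D1 at 0.91, H2-T22 at 0.88, H2-Q4 at 0.84, H2-Q7 at 0.75, B2m at 0.74 and H2-Q6 at 0.45.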
